A study of Caenorhabditis elegans with 2 samples.

Results

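The proteasome subunit genes of Caenorhabditis elegans were examined for binding of the nuclear hormone receptor NHR-25 in L4 larvae. Members were all protein-coding genes of assembly WBcel235 whose symbol is pas, pbs, rpt or rpn followed by a number, 33 of 19985 genes. A ChIP-seq summit, the single base where a peak was strongest, was assigned to the protein-coding gene with the nearest annotated 5′ end within 2 kb. The data come from 2 biological replicates of whole hermaphrodites of strain OP33, genotype unc-119(ed3) III with the integrated transgene wgIs33. That transgene gives NHR-25 carrying GFP and FLAG at its C terminus, and chromatin was precipitated with an antibody against GFP. Both replicates belong to 1 group, the age is given as unknown, and no control library was used here. The chromatin came from whole animals, so binding in a few tissues and weaker binding in many cannot be told apart. The promoter that drives the tagged protein is not given in the sources used here, and the strain also differs from wild type at unc-119.

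The proteasome is the protease that degrades ubiquitin-tagged proteins. Its barrel-shaped 20S core is built of alpha rings (pas genes), which gate the entry, and beta rings (pbs genes), which hold the proteolytic sites. The 19S cap is built of AAA ATPases that unfold substrates (rpt genes) and of non-ATPase subunits (rpn genes) that bind ubiquitin, remove it and scaffold the cap. In worms, SKN-1A is known to raise expression of the subunit genes when proteasome activity is impaired. NHR-25 is the worm receptor of the NR5A family and acts in epidermal development and molting.

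Of the 33 subunit genes, 5 had a thresholded summit, namely rpn-3, rpn-11, rpn-12, rpn-5 and pbs-1. They held 6 of the 1826 peaks in the thresholded list, which is the output of the irreproducible discovery rate (IDR) procedure. Such a summit was present at 15.2% of the subunit genes, against 6.06% of all protein-coding genes. No test was made of that difference, since the genes were chosen with earlier results of these data known. Of the 5 genes, 4 encode 19S non-ATPase subunits and 1 encodes a 20S beta subunit. No alpha-ring gene and no ATPase gene had a thresholded summit assigned to it. However, pas-1, pas-4 and rpt-2 had one within 1 kb that was nearest to another gene. The non-ATPase genes are also the largest class, with 13 genes against 7 pas, 7 pbs and 6 rpt genes. Counts this small do not separate the classes.

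The sequences at these summits are printed to show what lies under the peaks the results turn on. Each is read 5′ to 3′ in the direction of the subunit gene on ce11 (WBcel235, RefSeq genome), and spans up to 100 bp on either side of the summit, cut where an annotated exon of a protein-coding gene begins. Capitals mark matches, on either strand, to any of 7 motifs. The nuclear receptor half-site was AGGTCA, and its NR5A form, which contains it, was AAGGTCA. The repeat GAGAGAG was searched for along with the EOR-1 type site, spelled GACGCAG. The remaining motifs were the E-box CACGTG, the SKN-1 type site TGTCAT and the box CCAAT.
rpn-3 (chrIII:8447076-8447276, plus strand): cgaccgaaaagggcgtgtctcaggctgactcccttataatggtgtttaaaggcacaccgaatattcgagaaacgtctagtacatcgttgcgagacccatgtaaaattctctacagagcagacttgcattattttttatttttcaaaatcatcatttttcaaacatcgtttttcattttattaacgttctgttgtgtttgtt
rpn-11 (chrII:4044547-4044651, minus strand): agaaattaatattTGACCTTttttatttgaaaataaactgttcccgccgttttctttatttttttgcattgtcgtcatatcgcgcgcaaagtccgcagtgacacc
pbs-1 (chrIV:1709836-1710036, minus strand): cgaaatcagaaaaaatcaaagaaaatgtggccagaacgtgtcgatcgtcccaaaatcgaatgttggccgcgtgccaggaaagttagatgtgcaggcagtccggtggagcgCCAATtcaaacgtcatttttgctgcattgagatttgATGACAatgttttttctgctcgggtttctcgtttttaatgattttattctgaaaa
rpn-12 (chrII:11652847-11653047, plus strand): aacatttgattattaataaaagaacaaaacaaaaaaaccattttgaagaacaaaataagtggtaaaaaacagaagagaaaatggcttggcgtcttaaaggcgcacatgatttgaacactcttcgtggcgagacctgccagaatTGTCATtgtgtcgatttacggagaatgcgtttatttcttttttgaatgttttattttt
rpn-5 (chrII:4698428-4698580, minus strand): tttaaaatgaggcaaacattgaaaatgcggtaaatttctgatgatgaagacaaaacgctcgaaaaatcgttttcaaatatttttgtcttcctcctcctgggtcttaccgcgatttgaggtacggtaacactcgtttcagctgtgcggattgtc
rpt-1 (chrV:11982398-11982587, minus strand): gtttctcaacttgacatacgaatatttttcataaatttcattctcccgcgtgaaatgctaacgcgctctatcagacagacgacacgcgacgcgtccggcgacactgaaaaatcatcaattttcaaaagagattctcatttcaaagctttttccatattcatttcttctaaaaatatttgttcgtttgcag
rpt-2 (chrV:6017735-6017935, minus strand): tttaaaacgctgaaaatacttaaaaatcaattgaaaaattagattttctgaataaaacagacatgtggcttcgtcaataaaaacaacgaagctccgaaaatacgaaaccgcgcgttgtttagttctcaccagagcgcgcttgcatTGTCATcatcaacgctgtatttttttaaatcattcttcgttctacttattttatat

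The first 5 of these sequences lie at the thresholded summits upstream of their genes. The other pair are shown because rpt-1 lay just under the threshold and rpt-2 had a thresholded summit that was nearest to its neighbour. The GC content of the 7 stretches was between 32.3% and 41.8%. The rpn-3, rpn-5 and rpt-1 stretches held none of the motifs. The rpn-11 sequence held AAGGTCA on the opposite strand, with its first printed base 87 bp upstream of the summit. TGTCAT or its reverse complement began 46 bp downstream of the summit at pbs-1, 43 bp at rpn-12 and 45 bp at rpt-2. A match is only a run of letters and does not show a bound site.

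The strongest subunit gene was rpn-3, which encodes a PCI-domain subunit of the 19S lid (WBGene00004460, chromosome III, 8447353 to 8449346, plus strand). Its peak had a signal of 50.7 in the pooled list, 19.7 in replicate 1 and 28.9 in replicate 2. The summit lay 177 bp upstream of the 5′ end, in intergenic sequence. It ranked 557 of 30000 pooled peaks, 757 of 23929 in replicate 1 and 759 of 30000 in replicate 2. Both replicates therefore placed it near the same position in their own lists. The signal is the authors' own value per peak, and since its scale is not stated, it is compared only within a list.

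The gene rpn-11, for the metalloprotease that removes ubiquitin chains from substrates, was nearly as strong (WBGene00004467, chromosome II, 4043055 to 4044546, minus strand). Its peak had a signal of 50.2 in the pooled list, 18.1 in replicate 1 and 28.8 in replicate 2. The summit lay 5 bp upstream of the annotated 5′ end, the closest of the 5. Its ranks were 567, 923 and 766. Among all genes ordered by their strongest pooled signal, rpn-3 was at position 393 and rpn-11 at 399.

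Lower signals marked pbs-1, rpn-12 and rpn-5. The gene pbs-1, for the beta subunit whose orthologs carry the caspase-like site (WBGene00003947, chromosome IV, 1708814 to 1709745, minus strand), had a signal of 40.5 in the pooled list, 10.6 in replicate 1 and 28.9 in replicate 2, with the summit 191 bp upstream. Replicate 2 ranked it 757 and replicate 1 ranked it 2800, so the replicates differed on it more than on the 4 rpn genes with a thresholded summit. A second pbs-1 summit, with signals of 31.1, 11.9 and 14.1, lay 1197 bp downstream of its 5′ end. That summit is in an exon and 3′ UTR of the neighbouring gene K08D12.4, past the 3′ end of pbs-1.

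The gene rpn-12, for a lid subunit (WBGene00004468, chromosome II, 11653124 to 11654192, plus strand), had a signal of 37.7 in the pooled list, 12.9 in replicate 1 and 21.3 in replicate 2, with the summit 177 bp upstream. Its ranks were 1126, 1904 and 1540. The lid subunit gene rpn-5 (WBGene00004461, chromosome II, 4696418 to 4698427, minus strand) had signals of 35.4, 14.6 and 21.5 in the same lists, with the summit 53 bp upstream. Its ranks were 1334, 1466 and 1517, again close to each other in the replicates. The 5 upstream summits were all intergenic and all within 191 bp of the gene's 5′ end.

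**Figure D1:**
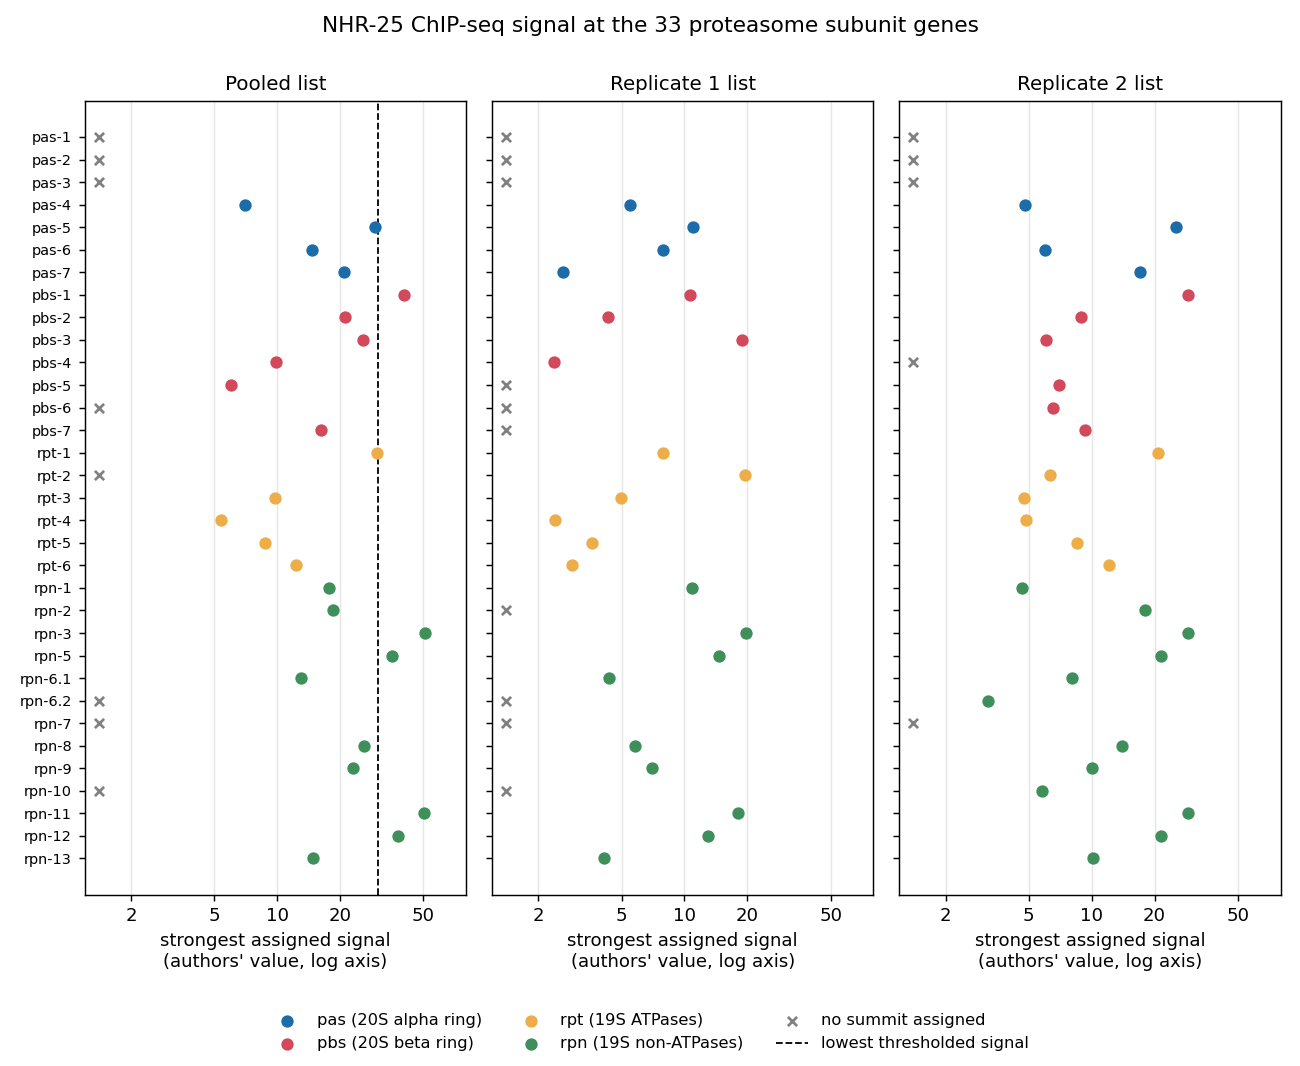
Strongest assigned signal of each of the 33 subunit genes (rows) in the pooled, replicate 1 and replicate 2 lists (panels, log axes, the authors' own values with no error). Crosses mark genes with no summit assigned, and 5 genes lie right of the lowest thresholded signal of 30.3 in the pooled panel.

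Several subunit genes lay close to the threshold. The thresholded list was the 1826 strongest of the 30000 pooled peaks, and its lowest signal was 30.3. Just inside it lay rpn-5 with 35.4 and the second pbs-1 summit with 31.1. Just outside it lay the ATPase gene rpt-1 with 30.1, the alpha-ring gene pas-5 with 29.4 and rpn-8, for the partner of the RPN-11 metalloprotease, with 26.01. The rpt-1 summit lay 90 bp upstream of its 5′ end and had 7.89 in replicate 1 and 20.8 in replicate 2. The pas-5 summit lay 956 bp upstream, with 11.0 and 25.4 in replicates 1 and 2. Next came pbs-3 with 25.6 and a summit 96 bp upstream. The gap to ulp-2, the upstream gene on the same strand, is 22 bp, so this summit lies beyond that gap. The pbs-3 peak ranked 839 of 23929 in replicate 1, with 18.8, and 13198 of 30000 in replicate 2, with 6.03. Ranks in lists of unequal length can be compared only roughly.

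The whole pooled list, which the submitters label as peaks and background, reached most of the subunit genes. Of 33, 25 had at least 1 pooled summit, against 46.4% of all protein-coding genes. The lists of single replicates reached 23 members in replicate 1, against 44.6% of all genes, and 28 in replicate 2, against 49.5%, with 22 members in both. Counted over all 33 genes, with genes without a summit placed lowest, the median strongest pooled signal was 14.6. Since 46.4% of all genes had a pooled summit, the median over all genes on this count is a gene with none. Over the 25 members with a summit alone, the median was 18.4 and the quartiles 12.2 and 29.4. Over the 9268 genes with a pooled summit, the median was 10.8 and the quartiles 6.77 and 19.9.

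**Figure D2:**
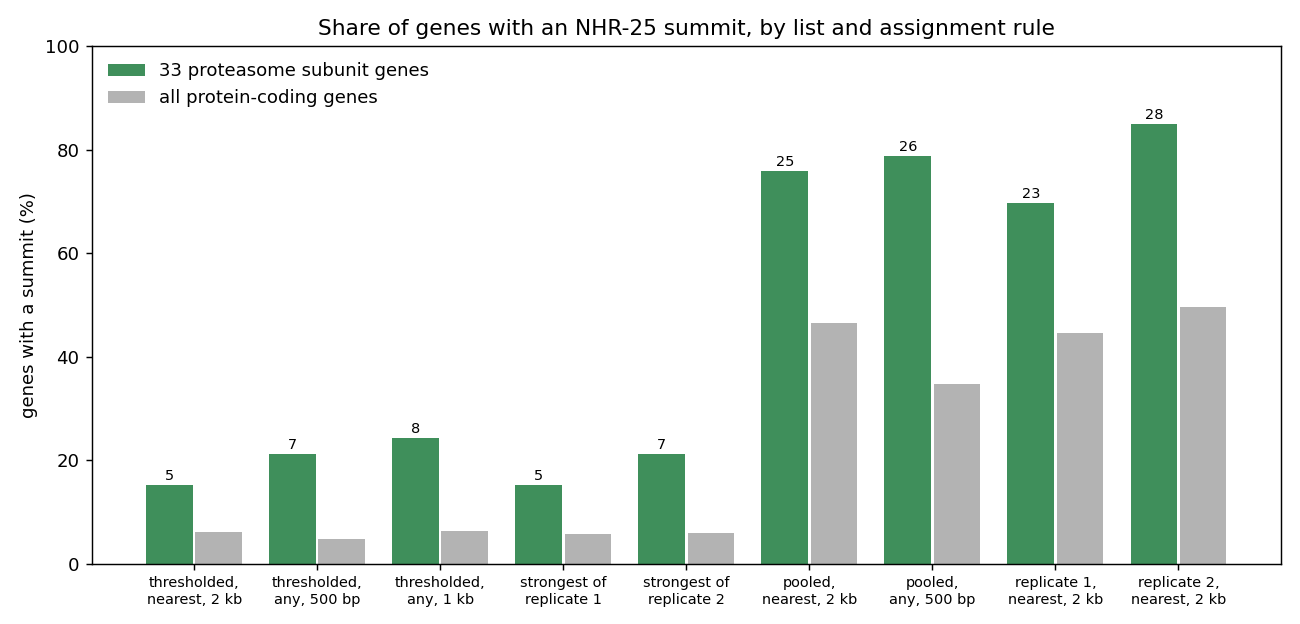
Share of the 33 subunit genes (green, with their number above the bar) and of all 19985 protein-coding genes (grey) that had a summit, in percent, by list and assignment rule. The green bar is the higher of each pair drawn, from 5 genes (15.2%) with the thresholded list to 28 genes in the replicate 2 list. Pooled summits counted for every gene within 1 kb (29 genes, against 44.4% of all genes) are not drawn.

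Values of the 20S alpha-ring genes depended on how summits were assigned. Of 7 pas genes, 4 had a pooled summit nearest to them, and each gene's strongest signal was between 6.99 at pas-4 and 29.4 at pas-5. The genes pas-1, pas-2 and pas-3 had no summit assigned in the pooled list or in either replicate list. When a summit counted for every gene with a 5′ end within 1 kb, all 7 pas genes had a pooled summit, with 33.2 at pas-1, 7.21 at pas-2, 19.9 at pas-3 and 35.4 at pas-4. The pas-5 gene had 4 pooled summits assigned to it, the most of any member. The strongest pas-6 summit, with 14.6, lay 184 bp upstream and was the only strongest summit of the 4 genes within 500 bp. The pas-4 summit with 6.99 lay 1862 bp downstream of the 5′ end, past the 3′ end of the gene. At pas-7 the strongest summit, with 20.8, lay 1275 bp downstream of the 5′ end and also past the 3′ end. It ranked 19386 of 23929 in replicate 1, with 2.62, and 2451 of 30000 in replicate 2, with 17.0.

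Of 7 beta-ring genes, 6 had a pooled summit and 4 had their strongest summit within 500 bp of the 5′ end. After pbs-1 and pbs-3 came pbs-2, for the trypsin-like subunit, with 21.0 at 309 bp upstream, and pbs-7 with 16.1 at 120 bp upstream. The pbs-4 gene had 9.83, and pbs-5, for the chymotrypsin-like subunit, had 5.996, below the pooled list's median signal of 8.04. The pbs-6 gene had a summit in replicate 2 alone, with 6.53.

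Of the 6 ATPase genes, 5 had a pooled summit. Below rpt-1 the signals were 12.2 at rpt-6, 9.78 at rpt-3, 8.72 at rpt-5 and 5.37 at rpt-4. The rpt-5 summit lay 1877 bp downstream of the 5′ end, past the 3′ end of the gene. The rpt-2 gene had no assigned pooled summit but a strong one in replicate 1, with 19.4 and rank 788 at 83 bp upstream. In replicate 2 its assigned summit had 6.34 and lay 1974 bp downstream.

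Of the 13 non-ATPase genes, 10 had a pooled summit, and 9 of those had the strongest one within 500 bp. Signals below the threshold were 26.01 at rpn-8, 22.9 at rpn-9, 18.4 at rpn-2, 17.7 at rpn-1, 14.8 at rpn-13 and 13.0 at rpn-6.1. Here rpn-1 and rpn-2 encode the large scaffold subunits and rpn-13 a ubiquitin receptor. The genes rpn-6.2, rpn-7 and rpn-10 had no pooled summit. RPN-10 is another ubiquitin receptor, and its gene had a summit in replicate 2 with 5.81. For rpn-6.2 that value was 3.21, and rpn-7 had none in any list. The median over all members of a class, with absent genes as lowest, was 18.4 for rpn, 16.1 for pbs, 9.25 for rpt and 6.99 for pas genes. This order did not hold when a summit counted for every gene within 1 kb, where the medians were 19.9 for pas, 18.44 for rpt, 18.4 for rpn and 16.1 for pbs genes.

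The strongest summit of a subunit gene was more often upstream of the gene than downstream. Of the 25 members with a pooled summit, 17 (68.0%) had the strongest one upstream and 8 had it downstream. Over all genes with a pooled summit the upstream share was 58.8%. The strongest summit was within 500 bp of a 5′ end for 16 members (64.0%), against 51.7% of those genes, and 15 of the 16 were on the upstream side. The exception was rpn-6.1, at 310 bp downstream. Distances had a median of 309 bp for members and 472.5 bp for all genes with a pooled summit. A summit between divergent genes is assigned to the nearer 5′ end, so a short upstream gap limits the distance. Upstream gaps had a median of 443 bp for members and 1155 bp for all genes. How far the gaps set these distances was not tested. Counting every summit, 22 of the 44 pooled member summits were upstream and 22 downstream. Within 500 bp there were 22 of the 44, and 17 of these were on the upstream side.

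**Figure D3:**
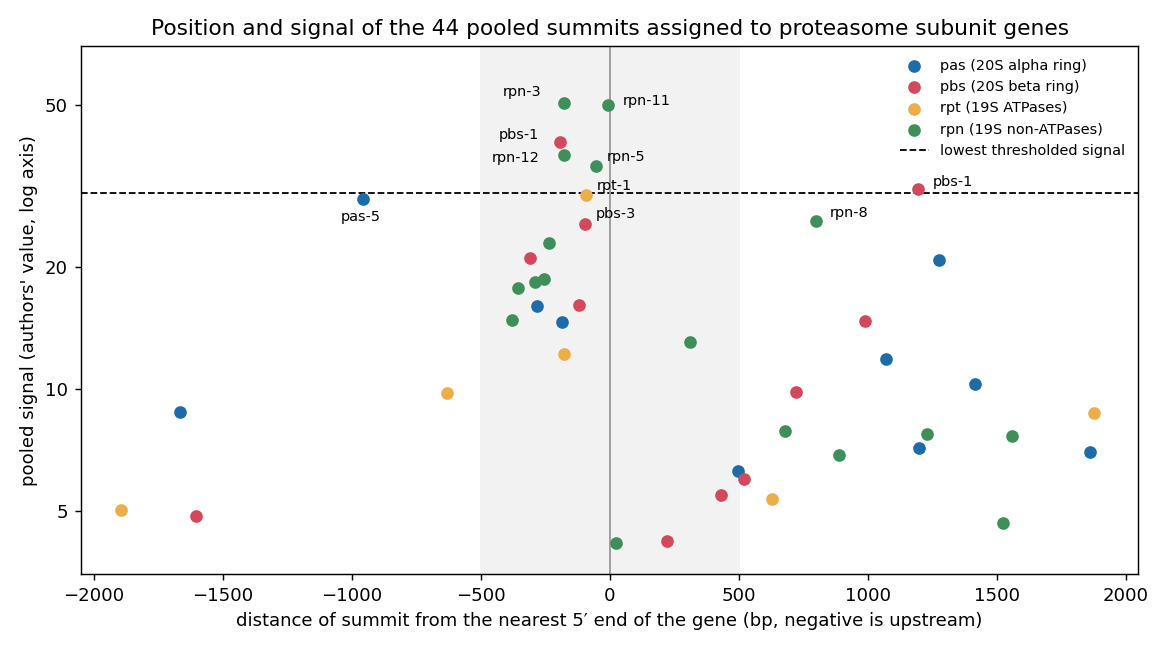
Pooled signal (log axis, the authors' own values) of the 44 pooled summits assigned to subunit genes against the distance from the gene's nearest 5′ end in bp, negative upstream. The shaded band covers 500 bp on either side, and 5 of the 6 summits above the dashed line (30.3) lie in it on the upstream side, the exception being the second pbs-1 summit at 1197 bp downstream.

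Many subunit genes had a gene on the other strand upstream, and many had a short upstream gap, each counted separately. The nearest protein-coding gene upstream was divergent for 23 of 33 members (69.7%), against 45.4% of all genes. The median upstream gap was 443 bp for members and 1155 bp for all genes, and it was under 500 bp for 60.6% of members and 27.3% of all genes. Short gaps also lay beside genes on the same strand, such as 22 bp at pbs-3. Where a short gap separates divergent genes, a summit can be near the 5′ ends of both. The rpn-3 summit lay 267 bp from the 5′ end of hsp-110, a chaperone gene, and the rpn-12 summit 218 bp from that of rad-23, whose product carries ubiquitinated proteins to the proteasome. The rpn-5 summit lay 241 bp from scc-1, a cohesin subunit gene, and the pbs-1 summit 329 bp from K08D12.3. At rpn-11 the upstream gene, K07D4.2, lies on the same strand, and no other protein-coding 5′ end was within 500 bp.

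A further 3 subunit genes had a thresholded summit within 1 kb that was nearest to another gene. The rpt-2 5′ end was 166 bp from a summit assigned to aps-1, an adaptor complex gene, at 135 bp. That peak, on chromosome V from 6017640 to 6018029, had signals of 34.2 in the pooled list, 19.4 in replicate 1 and 12.5 in replicate 2. The replicate 1 peak here is the one assigned to rpt-2 in that replicate, so the assignment moved between genes with the summit's position. The pas-4 5′ end was 178 bp from a summit assigned to rpb-3, an RNA polymerase II subunit gene, at 99 bp, with signals of 35.4, 12.1 and 21.6. The pas-1 5′ end was 876 bp from a summit assigned to rpoa-12 at 190 bp, with signals of 33.2, 5.89 and 23.7.

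When a summit counted for every gene with a 5′ end within 500 bp, 7 of 33 subunit genes had a thresholded summit, against 4.78% of all genes. Within 1 kb there were 8, against 6.38%. With pooled summits there were 26 within 500 bp, against 34.7%, and 29 within 1 kb, against 44.4%. Of the 7 thresholded peaks within 500 bp of a subunit gene, 6 had a second gene's 5′ end within 500 bp, whereas 22.4% of the 814 thresholded peaks that near to any protein-coding 5′ end did. The pas-4 and rpt-2 peaks enter that count because another gene is nearer, so they had to have a second gene. A noncoding RNA gene overlapped 3 of the 7 peaks, against 18.2% of the 814. These were C30C11.14, 81 bp from the rpn-3 summit, C36B1.16 at the pas-4 summit and F29G9.10 at the rpt-2 summit. Whether the signal belongs to the noncoding genes was not tested.

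**Figure D4:**
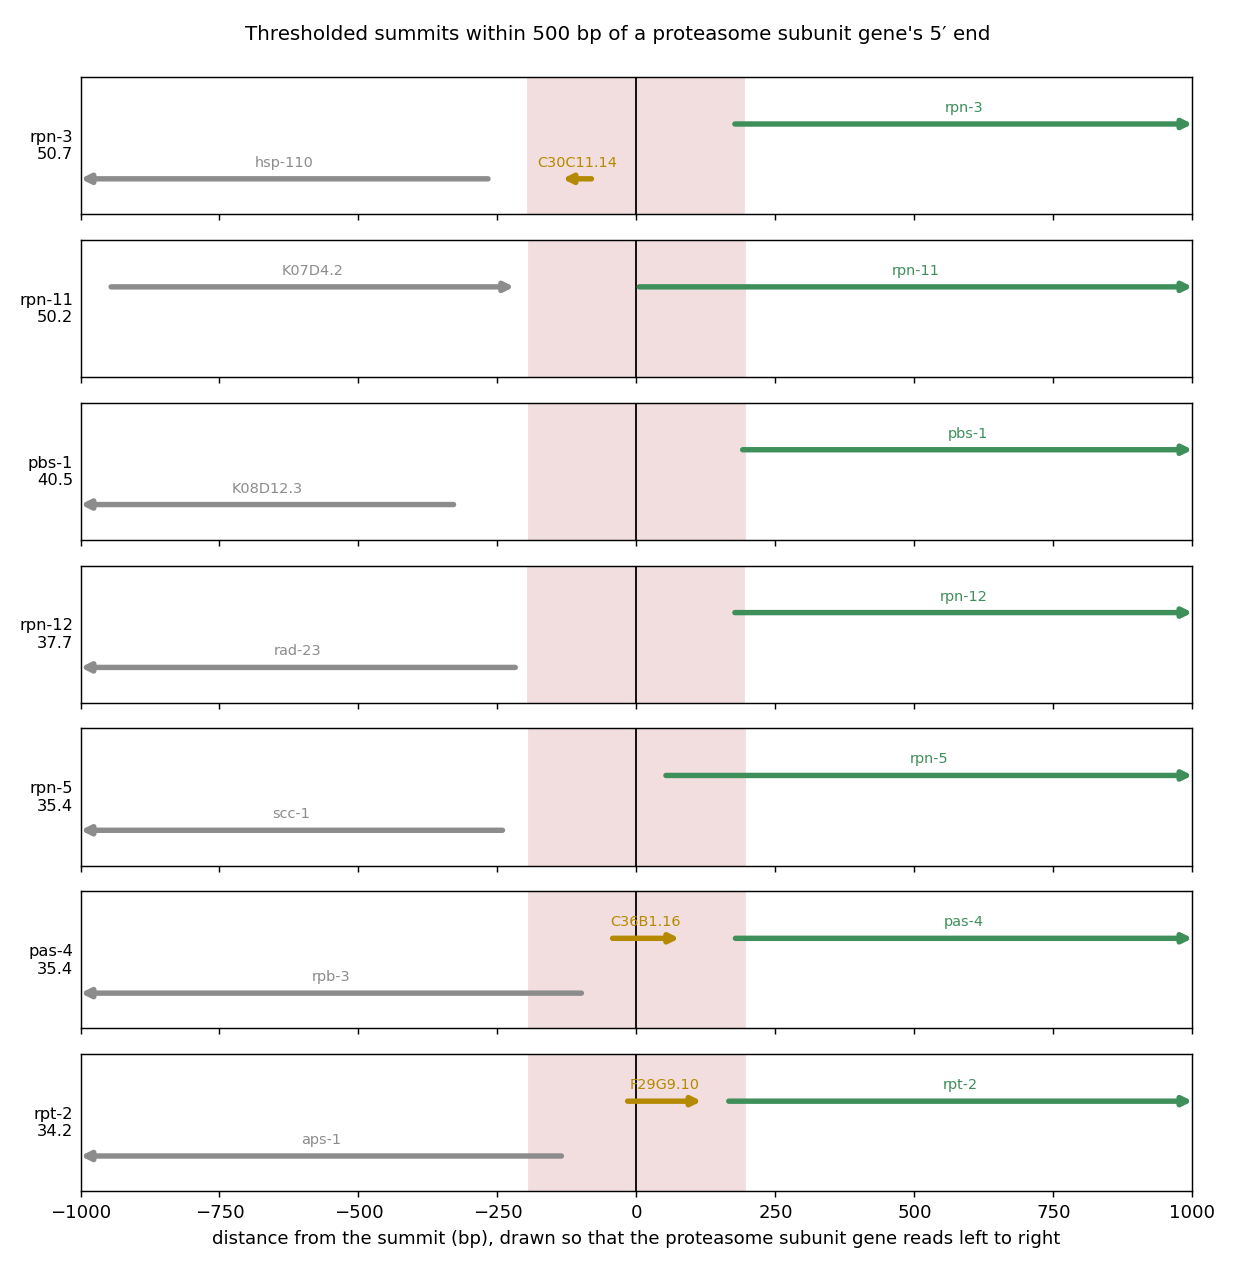
Genes within 1 kb of the 7 thresholded summits that lie within 500 bp of a subunit gene's 5′ end, on an axis of distance from the summit in bp, each drawn so that the subunit gene reads left to right. The shaded band is the peak, arrows are gene bodies (green for subunit genes, grey for other protein-coding genes, brown for noncoding genes), the number under each name is the pooled signal, and in 6 of the 7 maps a protein-coding gene starts on the other strand.

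The 4 rpn genes with a thresholded summit had similar ranks in the replicates, and those of pbs-3 and pas-7 lay far apart. Of the 25 strongest pooled peaks of members, 21 overlapped a peak of replicate 1, 23 one of replicate 2 and 19 one of both, by at least 1 bp. Over those 19 genes Spearman's rho between the signals of the replicates was 0.502 and Pearson's r of the log2 signals 0.491. Without the 5 genes that had a thresholded summit, rho was 0.125 over 14 genes. The thresholded genes come from the IDR procedure, which compares the replicates, but the list it gave equals the 1826 strongest pooled peaks. The pooled list is made from both replicates. The similar ranks of the 4 rpn genes, and the lower rho without the 5 genes, are therefore not independent of that selection. A thresholded peak need not rank alike in both replicates, as at pbs-1, with 2800 in replicate 1 and 757 in replicate 2. The points share their libraries, and the 19 were listed in both replicates, so these values describe the list and carry no p.

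**Figure D5:**
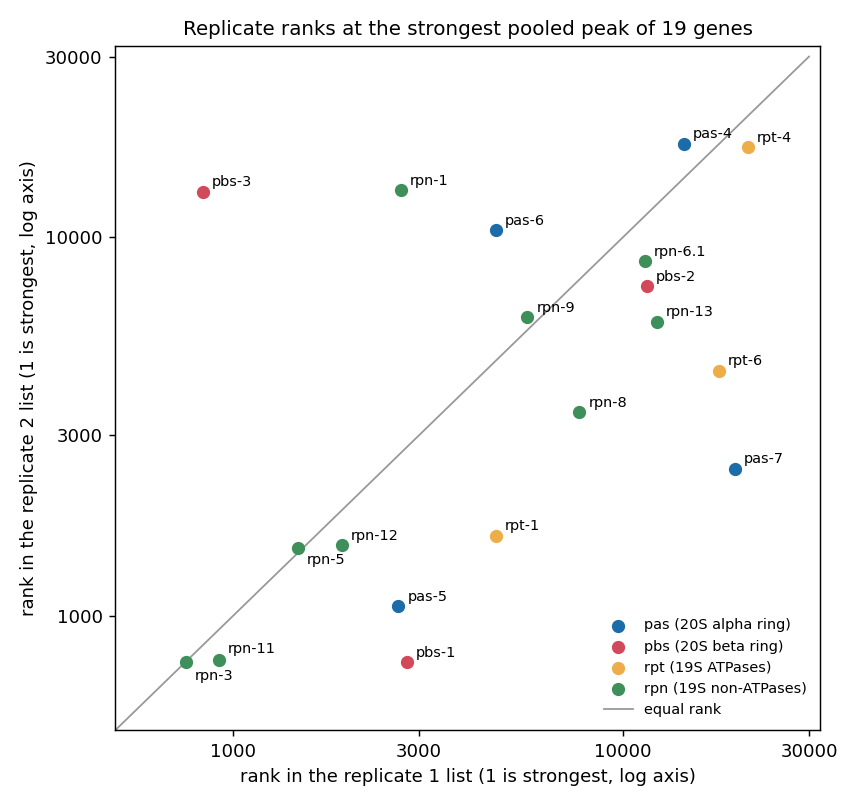
Rank of the overlapping peak in the replicate 1 list (x axis) and the replicate 2 list (y axis, both log axes, 1 is strongest) for the 19 subunit genes whose strongest pooled peak overlapped a peak of both replicates. The genes rpn-3, rpn-11, rpn-12 and rpn-5 sit near the line of equal rank at lower left, and pbs-3 (839 and 13198) and pas-7 (19386 and 2451) are far from it on opposite sides.

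With as many of the strongest peaks of a single replicate as there are thresholded peaks, 5 members had a summit in replicate 1 and 7 in replicate 2, against 5.8% and 5.97% of all genes. The genes rpn-3, rpn-11 and rpn-5 were in both sets. The genes pbs-3 and rpt-2 were in the replicate 1 set alone, and pbs-1, rpn-12, rpt-1 and pas-5 in the replicate 2 set alone. These lists hold no read counts, so the depth behind a difference between replicates is unknown.

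Motif counts at the subunit genes were small, and no test was made on them. TGTCAT was present within 100 bp of 3 of the 6 thresholded member summits, those of pbs-1, rpn-11 and rpn-12, against 10.5% of all thresholded summits. The rpn-11 match lies in the first exon of the gene, which was left out of the printed stretch. GAGAGAG was at none of those 6 summits and at 20.6% of all thresholded summits, and GACGCAG at none and at 14.7%. AAGGTCA, and with it AGGTCA, was at 1 of the 6, that of rpn-11, against 5.75% and 12.4% of all thresholded summits. CACGTG was at 1 of the 6, against 8.38%, and CCAAT at 2, against 30.8%. That CACGTG was at the second pbs-1 summit, in K08D12.4, and CCAAT was at both pbs-1 summits. TGTCAT was at 6 of the 25 strongest pooled summits of members, against 10.4% of all pooled summits. These sets are unlike, here and for the other motifs below. The 25 are the strongest assigned summit of each gene, whereas only 20887 of the 30000 pooled summits lay within 2 kb of a 5′ end. In promoters, taken as the 250 bases before the 5′ end and the next 50, TGTCAT was in 12 of 33 members (36.4%) and in 16.3% of all protein-coding genes. AAGGTCA was within 100 bp of 1 of the 25 strongest summits, that of rpn-11, and of 2.77% of all pooled summits. AGGTCA was in the promoters of 2 members, rpn-11 and rpn-6.2, and of 8.27% of all genes. GAGAGAG was at none of the 25 summits and at 6.77% of all pooled summits. GACGCAG was at 1 of the 25, that of rpn-9, and at 4.08% of all pooled summits. CACGTG was also at 1, that of rpn-6.1, and at 4.203% of all pooled summits, while CCAAT was at 7 of the 25 and at 36.3%. No match says only that these letters are not in the window.

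The subunit genes lie on chromosomes I (10 genes), II (7), III (8), IV (3) and V (5), with 0 on chromosome X, which holds 13.7% of protein-coding genes. Of the 5 genes with a thresholded summit, 3 are on II, 1 on III and 1 on IV. None of the 10 genes on chromosome I had one assigned, although the pas-4 5′ end lay 178 bp from a thresholded summit nearest to rpb-3. Over all genes the share was 6.06%. Shares of all genes by chromosome were not counted, so nothing is read from these small counts.

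Other genes of the ubiquitin and proteasome pathway also had summits. Of 38 symbols listed, 35 matched a protein-coding gene, and 10 of the 35 had a thresholded summit, beside the 6.06% of all genes given above. By group these were 1 of 7 associated factors, 1 of 6 genes that act with SKN-1A or in quality control of the endoplasmic reticulum, 4 of 12 unfoldase genes and cofactors and 4 of 10 ubiquitin and conjugation genes. The list was written with earlier results of these data known.

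The strongest of these was cdc-48.1, for the p97 unfoldase that feeds substrates to the proteasome, with 136 in the pooled list, 57.4 in replicate 1 and 78.5 in replicate 2, at 155 bp upstream. That exceeds every subunit gene in each list. The ubiquitin-conjugating enzyme genes let-70 and ubc-3 had 80.01 and 68.5 in the pooled list, 38.4 and 32.3 in replicate 1, and 44.5 and 31.2 in replicate 2. The gene ubl-1, for a ubiquitin-like fusion with a ribosomal protein, had a pooled signal of 44.2, and uba-1, for the ubiquitin-activating enzyme, 37.2. The p97 cofactor genes ubxn-3, ufd-2 and ubxn-2 had pooled signals of 49.2, 36.1 and 32.8, the last with no overlapping replicate 1 peak. The gene aip-1, for a stress-induced proteasome-associated protein, had 39.4 in the pooled list, 17.96 in replicate 1 and 25.6 in replicate 2. At skn-1 the pooled signal was 53.0, with 15.7 and 40.7 in replicates 1 and 2, but the summit lay 1692 bp upstream of the nearest 5′ end. The genes ddi-1, for the protease that processes SKN-1A, and rad-23 had no assigned pooled summit, although the rpn-12 summit lay 218 bp from rad-23. The gene png-1, for the glycanase that acts on SKN-1A, had 9.38.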

How the data were processed

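ChIP-seq of GFP-tagged NHR-25 was analysed from 4 deposited peak lists on build ce11 in the 10-column narrowPeak layout. These are the lists of replicate 1, replicate 2 and the pooled replicates, and the thresholded list derived from them, per the deposited text records. The submitters name the first 3 as peaks and background given to the IDR procedure and the last as its optimal output. The peak-calling program, alignment tool and IDR cutoff were not given in the sources used here. Signal was taken as deposited by the authors, and its scale is unstated. Summit offsets, also deposited by the authors, are in bp. The lists hold no read counts, so depth is unknown, and the pooled values have no replicate error. Lists on ce10 were not used.

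Summits were assigned to the nearest of 29326 5′ ends, distinct within a gene, of protein-coding transcripts (Ensembl release 115, WBcel235) within 2 kb, and a tie counted for each gene. All peak ends lay within the chromosome lengths. Replicate values are those of the strongest peak overlapping the pooled peak by at least 1 bp, or, where a list is counted alone, of the strongest assigned summit. The 7 motifs were searched on both strands, within 100 bp of summits and in promoter windows cut from the RefSeq WBcel235 genome at annotated gene starts. The assignment was tested on simulated positions. Python 3.11.15, numpy 2.4.6, pandas 2.3.3 and matplotlib 3.10.9 were used. The members and lists were chosen with earlier results of these data known. All 33 members could be named. The plan was to give those with a thresholded summit in full and the 5 strongest without one by value. Values of the other members with a summit, and some pathway genes without a thresholded summit, were given beyond that plan. Alternatives covered distance, assignment, annotation, threshold, summit position and single replicates.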

Additional observations from a re-analysis of the deposited data

How the results depend on the processing

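The count of 5 members with a thresholded summit was the same with windows of 500 bp and 1 kb, with 1 outermost 5′ end per gene and with the peak midpoint, and held the same genes. The shares of all genes in these settings were 3.9%, 4.89%, 5.65% and 6.05%. It was 8 when each summit counted for every gene within 1 kb, which adds pas-1, pas-4 and rpt-2 (6.38% of all genes), and 7 within 500 bp (4.78%), a rule added after the data were seen. With the peaks at or above the median thresholded signal it was 2, rpn-3 and rpn-11, against 3.22% of all genes, since fewer peaks are counted. With noncoding genes among the candidates it was 4, against 4.62%, because C30C11.14 is nearer to the rpn-3 summit than rpn-3. Leaving out a replicate meant counting the 1826 strongest peaks of the other, as given above. The count was 5 from replicate 1 alone, against 5.8%, and 7 from replicate 2 alone, against 5.97%. From replicate 1 alone, pbs-3 and rpt-2 entered. There pbs-1 and rpn-12 had summits at ranks 2800 and 1904, below the cut. The pooled count of 25 members ranged from 20 with a 500 bp window to 29 with every gene within 1 kb, also added after the data were seen. Under that added rule 7 pas genes had a pooled summit, against 4 in the nearest-gene assignment. The list of replicate 2 alone reached 28 members and that of replicate 1 alone 23. The median strongest pooled signal over members with a summit, 18.4, was 18.5 with a 500 bp window and 19.6 with 1 outermost 5′ end per gene. The count of 16 members within 500 bp did not move under either alternative tried. No paired analysis was possible because the samples form 1 group. Depth is unknown, so a member without a summit cannot be called unbound.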
